A study of Mus musculus with 5 samples.

Results

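The genes described here are 7 members of the MHC class II pathway, chosen by symbol and not by a threshold on their values. They are Cd74, H2-Aa, H2-Ab1, H2-Eb1, H2-DMa, H2-DMb1 and Ciita, out of 23771 genes in the deposited table of lung-borne cancer cells. MHC class II molecules display peptides from the endosomal pathway to CD4+ T cells. B cells, dendritic cells and macrophages make them constantly, and many epithelial and tumor cells make them only after interferon gamma. Interferon gamma acts through its receptor, JAK kinases and the factor IRF1 to switch on Ciita, the class II transactivator. CIITA does not bind DNA itself. It is recruited to class II promoters by the RFX complex, CREB and the trimer NF-Y, which sit side by side on the X and Y boxes.

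Female BALB/c mice, 11 weeks old when the lungs were taken, had received control medium (CM) or tumor-secreted factors (TSF, medium conditioned by resected mouse mammary tumors) intravenously, 3 times per week for 3 weeks. Mice of both groups were then injected intravenously with 25000 4T1 cells that carried the CD90.1 reporter, and lungs were dissociated at day 16. 4T1 is a mouse mammary carcinoma line derived from a BALB/c background. Each group was 1 single-cell library made from the pooled lungs of 3 mice, so no difference between the groups has a replicate check, and no test between groups was made.

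The cells the authors called cancer cells numbered 29 in the CM library and 139 in the TSF library. Their median depth was 27679 UMIs per cell in CM and 26615 in TSF, and 27.6% of the CM cells against 10.1% of the TSF cells had under 10000 UMIs. No cell barcode was shared between the cancer cells of the libraries. As a check of the label, the keratin Krt8 was seen in 29 of 29 CM cells and 137 of 139 TSF cells. The epithelial adhesion gene Epcam was seen in 8 CM cells (27.6%, 95% interval 12.7 to 47.2%) and 95 TSF cells (68.3%, interval 59.9 to 76.0%). The CD90.1 reporter was seen in 2 CM cells and 48 TSF cells. Of the other carcinoma markers listed, Krt18 was seen in 28 CM and 138 TSF cells, Krt19 in 9 and 53, and Cdh1 in 2 and 35. Both populations therefore carried Krt8 and Krt18, while Epcam and CD90.1 were seen in a smaller share of the CM cells. The authors' clusters also split unevenly. Of the CM cells, 23 lay in cluster 131 and 6 in cluster 120, and of the TSF cells 54 lay in cluster 131 and 85 in cluster 120. Cd74, H2-Aa, H2-Ab1 and H2-Eb1 were among the genes used for that clustering, so the split is not independent of them, and its part in the results was not tested.

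Some of the class II promoters share an arrangement of X and Y box letters. Windows from 250 bases before to 50 bases after a start site (RefSeq, GRCm38.p6) were used for 4 members, namely H2-Aa, H2-Eb1, H2-DMb1 and H2-DMa. The stretches of 120 bases just upstream of the start of H2-Aa (chr17:34287824-34287943, minus strand) and of H2-Eb1 (chr17:34305747-34305866, plus strand) are shown 5′ to 3′ because they carry an X-like core and a Y box in the same order and at almost the same spacing. Capitals mark GNAACT, part of the X box, and ATTGG, the Y box that NF-Y binds.
H2-Aa: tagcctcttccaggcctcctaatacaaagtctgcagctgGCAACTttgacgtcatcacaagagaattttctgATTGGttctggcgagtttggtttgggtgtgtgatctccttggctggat
H2-Eb1: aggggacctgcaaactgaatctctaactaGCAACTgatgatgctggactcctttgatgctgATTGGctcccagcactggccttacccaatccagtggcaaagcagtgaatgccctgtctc
The gap between these elements was 27 bases in H2-Aa and 26 in H2-Eb1. H2-DMb1 held GTAACT and ATTGG with a gap of 27 bases. Neither of the 2 windows of H2-DMa held the arrangement, so 3 of the 4 members searched did. Among class II genes that are not members, H2-Eb2, which was seen in no cancer cell, held GCAACT and ATTGG with a gap of 26 bases, and H2-DMb2, H2-Oa and H2-Ob did not hold the arrangement. GNAACT followed by ATTGG after a gap of 10 to 35 bases, on either strand, was present in 1.13% of 32851 windows of the same length genome-wide. The letters and the gap were chosen after these promoters had been read, and a match is a description of the sequence only. H2-Ab1 and Ciita were not searched, and Cd74 was left out.

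Levels are given as CP10k, the UMIs of a gene per 10000 UMIs of a cell, averaged by the authors over all cancer cells of a library. The log2 ratio is log2 of TSF over CM after adding a pseudocount of 1 CP10k, which understates the change of genes with low values. The share of cells with at least 1 UMI is given with its exact 95% Clopper-Pearson interval, which reflects counting error but no differences among mice.

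All 7 members were lower in the TSF cells than in the CM cells by mean CP10k, and 7 of 7 were seen in a smaller share of cells. The log2 ratios ran from -2.10 for Cd74 to -0.44 for Ciita, with a median of -1.27. The background was the 10201 genes that had a UMI in 10% or more of the CM or of the TSF cells, and their median was -0.03. At least 2-fold lower in TSF were 5 of the 7 members, and 0.529% of those 10201 genes passed the same fold, while no member and 0.127% of the genes were at least 2-fold higher. The share intervals lay apart, with TSF lower, for 6 of the 7 members and for 1.51% of all these genes, and with TSF higher for no member and 1.14% of the genes. Ciita entered these genes through the CM cells alone, so its difference was partly fixed by the 10% limit, and 5 of the 6 other members had separate intervals. With the 10% limit set on the cells of both libraries together, which 7 of 7 members passed, the background with TSF lower was 1.42% (chosen after seeing the data). With smaller pseudocounts the fold rule passed more low genes. By plain ratio 7 of 7 members and 15.7% of genes were at least 2-fold lower, and with a pseudocount of 0.1 CP10k 7 of 7 members and 4.86% of genes. A log2 ratio below 0 was common, at 59.7% of genes against 40.3% above 0. How many of all genes were seen in a smaller share of TSF cells was not counted.

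**Figure D1:**
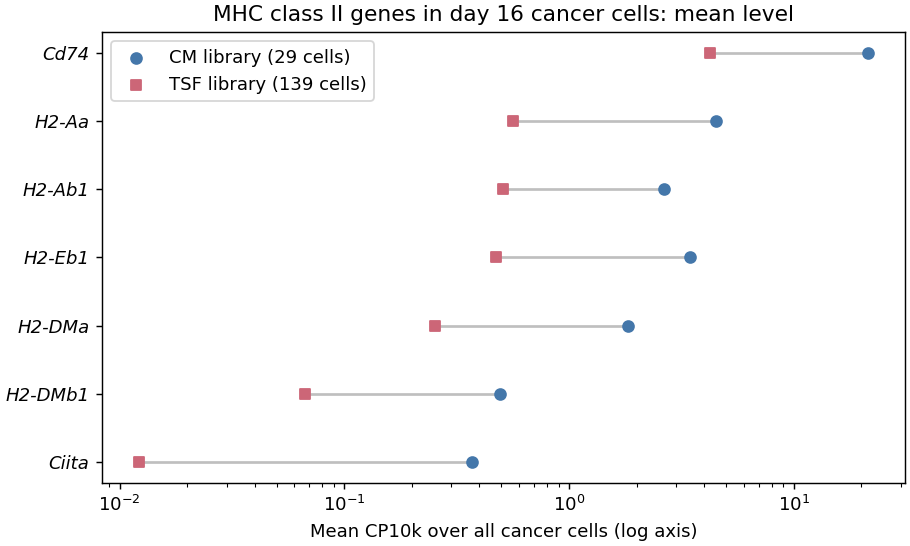
Mean CP10k (log axis) of each MHC class II gene over the cancer cells of the CM library (circles, 29 cells) and the TSF library (squares, 139 cells); there is 1 library per group and thus no error bar. Each of the 7 TSF values lies to the left of its CM value, from 4.23 against 21.5 for Cd74 to 0.0122 against 0.372 for Ciita.

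The transactivator Ciita (ENSMUSG00000022504, GRCm38 chromosome 16, 10480059 to 10528418, plus strand) had a mean of 0.372 CP10k in CM and 0.0122 in TSF, a 30.6-fold lower mean in TSF. It was seen in 12 of 29 CM cells (41.4%, interval 23.5 to 61.1%) and 5 of 139 TSF cells (3.60%, interval 1.18 to 8.19%). The ratio of these shares, CM over TSF, was 11.5 (exact conditional interval 3.77 to 41.7), and the TSF value rests on 5 cells. On the pseudocount scale its log2 ratio was only -0.44, so Ciita had the largest fold of the members by plain ratio and the smallest by log2 ratio.

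Cd74 (ENSMUSG00000024610, GRCm38 chromosome 18, 60803848 to 60812652, plus strand) encodes the invariant chain, which fills the peptide groove of new class II dimers and steers them to endosomes. Its mean was 21.5 CP10k in CM and 4.23 in TSF, a log2 ratio of -2.10, which ranked 5 from the bottom among the 10201 genes. It was nevertheless seen in most cells of both libraries, 23 of 29 CM cells (79.3%, interval 60.3 to 92.0%) and 80 of 139 TSF cells (57.6%, interval 48.9 to 65.9%). These intervals overlapped, which does not show that the shares were equal. The mean over cells with a UMI was 3.68-fold lower in TSF and the share 1.38-fold lower, so the difference was larger in the level.

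The classical chains form the peptide-binding dimers themselves. H2-Aa, the alpha chain of I-A, had 4.49 CP10k in CM and 0.562 in TSF (log2 ratio -1.81). H2-Ab1, its beta chain, had 2.64 CP10k in CM and 0.509 in TSF (log2 ratio -1.27). H2-Eb1, the beta chain of I-E, had 3.47 CP10k in CM and 0.475 in TSF (log2 ratio -1.60). The alpha chain of I-E was looked for as H2-Ea and H2-Ea-ps and was not among the 23771 genes. The 3 classical chains with values were thus between 5.20-fold and 7.99-fold lower in TSF by the plain ratio. Their shares of cells were close to each other within a library. H2-Aa was seen in 16 CM cells (55.2%, interval 35.7 to 73.6%) and 38 TSF cells (27.3%, interval 20.1 to 35.5%). H2-Ab1 was seen in 15 CM cells (51.7%, interval 32.5 to 70.6%) and 33 TSF cells (23.7%, interval 16.9 to 31.7%). H2-Eb1 was seen in 16 CM cells (55.2%, the same interval as H2-Aa) and 32 TSF cells (23.0%, interval 16.3 to 30.9%). For each chain the intervals lay apart, for H2-Aa by a narrow margin. The files do not give values per cell, so whether the same cells carried the 3 chains was not analysed here.

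H2-DM is a non-classical class II dimer that removes the invariant chain remnant from the groove and edits the peptide. Its alpha chain H2-DMa had 1.82 CP10k in CM and 0.254 in TSF (log2 ratio -1.17). It was seen in 22 CM cells (75.9%, interval 56.5 to 89.7%) and 44 TSF cells (31.7%, interval 24.0 to 40.1%). The difference of -44.2 percentage points, TSF minus CM, was the largest of the 7 members and ranked 10 from the bottom among the 10201 genes. The beta chain gene H2-DMb1 had 0.494 CP10k in CM and 0.0666 in TSF (log2 ratio -0.49), and was seen in 11 CM cells (37.9%, interval 20.7 to 57.7%) and 17 TSF cells (12.2%, interval 7.29 to 18.9%). Its neighbour and close paralog H2-DMb2, which is not a member, had 1.00 CP10k in CM and 0.0933 in TSF. Reads could be split between these paralogs, and the sum of both gave a log2 ratio of -1.11, a setting added after seeing the data. The H2-O chains H2-Oa and H2-Ob, which inhibit H2-DM mainly in B cells, and H2-Eb2 were seen in no cancer cell of either library. Taken as 3 counts of the total, a count of 0 allows up to 10.3% of CM cells and 2.16% of TSF cells with a UMI.

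**Figure D2:**
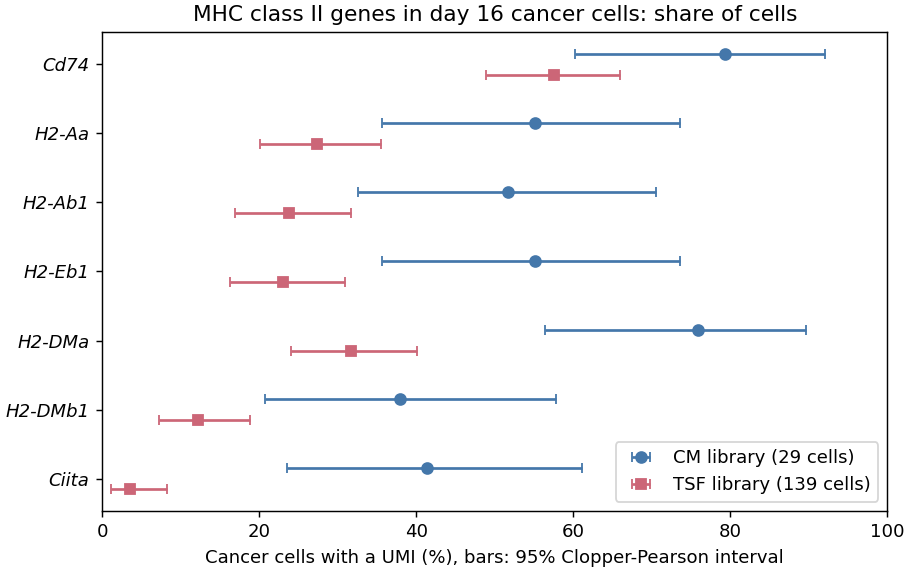
Percent of cancer cells with at least 1 UMI of each MHC class II gene in the CM library (circles) and the TSF library (squares), with 95% Clopper-Pearson intervals that cover counting error only. The intervals overlap for Cd74 and lie apart for the other 6 genes, among them H2-DMa (75.9% in CM, 31.7% in TSF) and Ciita (41.4% in CM, 3.60% in TSF).

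The 5 class II genes of the H2 complex lie within GRCm38 chromosome 17, 34119541 to 34316674, and H2-Aa is the only member there on the minus strand. Ciita and Cd74 lie on other chromosomes, so the lower levels were not limited to one locus. The reference genome carries the C57BL/6 haplotype of this complex, whereas BALB/c mice carry another. Some reads of the polymorphic chains may therefore not have mapped, in both libraries alike, and the effect on the levels was not tested.

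A mean over all cells mixes the share of positive cells with the level in them. The mean CP10k over cells with a UMI, that is the mean divided by the share, was also lower in TSF for 7 of 7 members. For Cd74 it was 27.0 CP10k in CM and 7.36 in TSF, a 3.68-fold difference, and for H2-Aa it was 8.15 and 2.06, a 3.96-fold difference. For the other members the fold lay between 2.38 for H2-Ab1 and 3.05 for H2-Eb1. How many of all genes were lower by this measure was not counted. In a cell with few UMIs 1 UMI is a high CP10k, and 27.6% of CM cells against 10.1% of TSF cells had under 10000 UMIs. The part of this depth difference in the folds was not tested. At the median depth 1 UMI amounts to 0.361 CP10k in CM and 0.376 in TSF. Ciita stood at 0.900 CP10k per positive cell in CM and 0.338 in TSF, so its TSF value was at the level of 1 UMI. For Ciita a lower level in all cells and fewer positive cells can therefore not be told apart, and the same holds for H2-DMb1, with 0.545 CP10k per positive cell in TSF. For Cd74, at a level far above 1 UMI, the ratio of the shares was 1.38 (interval 0.827 to 2.21).

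The measured shares can be set beside what an even level would give. If every cancer cell had held the mean level of its library, Poisson counts at the measured depths would have put a UMI of Cd74 in 99.6% of CM cells and 97.2% of TSF cells. The measured shares were 79.3% and 57.6%. For H2-Aa an even level would give 97.0% in CM and 72.9% in TSF, against 55.2% and 27.3% measured. H2-Eb1 was alike, with 95.9% and 67.9% for an even level against 55.2% and 23.0% measured. The measured shares thus lay below the even-level shares in both libraries. UMIs concentrated in a part of the cancer cells would give this, which was not tested. Each cell counts alike in the mean CP10k, so a few cells with few UMIs can raise the mean and the even-level share. The authors' ambient RNA subtraction may also have set low counts to 0. The part of either in these shares was not tested. Even-level shares lay above the measured interval for 6 of 7 members in CM and 5 of 7 in TSF. They lay inside it for Ciita in both libraries (55.2% in CM and 3.37% in TSF) and for H2-DMb1 in TSF (16.8%), so uneven levels were not detectable for those genes at this depth.

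**Figure D3:**
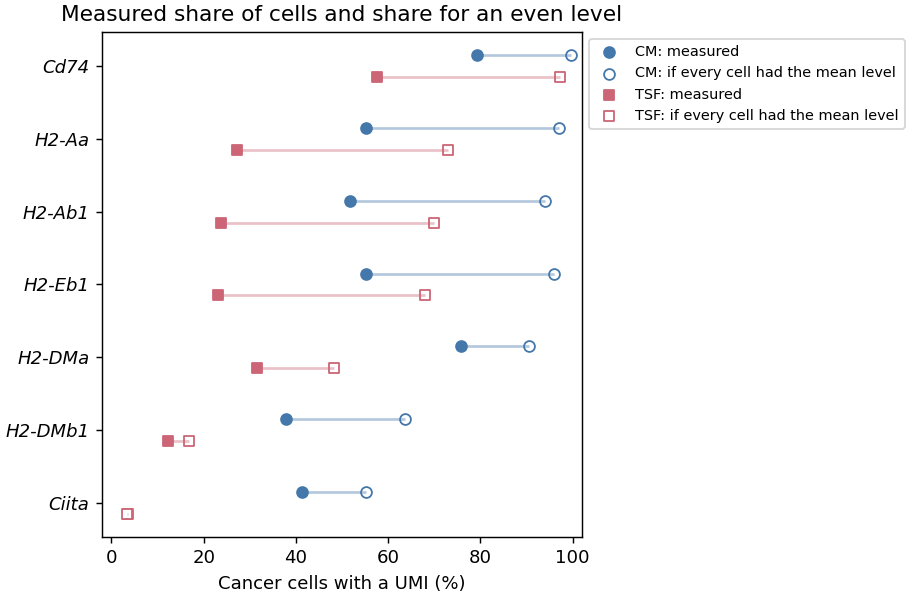
Percent of cancer cells with a UMI as measured (filled symbols) and as Poisson counts would give if each cell held the mean level of its library (open symbols), for CM (circles) and TSF (squares). Measured shares lie far below the even-level shares for Cd74 and the classical chains, while for Ciita in both libraries and H2-DMb1 in TSF the even-level share falls inside the 95% interval of the measured one.

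The genes that act upstream of Ciita did not differ as one block. Of 6 genes of interferon gamma signalling reported here, 5 had a log2 ratio below 0 (4 of them when CP10k were rescaled to a median ratio of 1), and 2 were at least 2-fold lower in TSF. Among the 10201 genes, 59.7% had a log2 ratio below 0 and 0.529% were at least 2-fold lower. Irf1, a transcription factor that acts on Ciita, had 6.64 CP10k in CM and 1.39 in TSF (log2 ratio -1.68). Its share intervals overlapped narrowly, at 77.2 to 99.2% in CM and 61.4 to 77.3% in TSF. Socs1, a feedback inhibitor of JAK kinases, had 2.65 CP10k in CM and 0.385 in TSF (log2 ratio -1.40). Its share intervals lay apart, at 64.2 to 94.2% in CM and 32.7 to 49.7% in TSF. The receptor and kinase genes had means of at most 0.854 CP10k, so with a pseudocount of 1 CP10k none could pass 2-fold. Their log2 ratios were 0.04 for Ifngr1, -0.21 for Ifngr2, -0.11 for Jak1 and -0.04 for Jak2, and their share intervals overlapped. By plain ratio they lay between a 1.65-fold lower mean for Ifngr2 and a 1.09-fold higher mean for Ifngr1 in TSF.

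The factors that hold CIITA at the promoter went in both directions. Of the 7 genes Rfx5, Rfxap, Rfxank, Nfya, Nfyb, Nfyc and Creb1, none had separate share intervals. All had means of at most 0.578 CP10k, so with a pseudocount of 1 CP10k none could pass 2-fold, and the plain ratio is given instead. Rfx5 (0.146 CP10k in CM, 0.0576 in TSF) and Creb1 (0.578 in CM, 0.220 in TSF) were 2.54-fold and 2.63-fold lower in TSF. Rfxap (0.0872 in CM, 0.232 in TSF) and Rfxank (0.0264 in CM, 0.102 in TSF), the other RFX subunits, were 2.66-fold and 3.88-fold higher in TSF. By plain ratio, 15.7% of the 10201 genes were at least 2-fold lower and 8.09% at least 2-fold higher. The NF-Y genes Nfya, Nfyb and Nfyc lay between a 1.13-fold lower and a 1.22-fold higher mean in TSF.

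The list of endosomal processing held genes that make the peptides or trim the invariant chain, and also Lamp1, Lamp2, March1 and March8. Of 13 listed, 11 passed the 10% limit. None of the 11 passed 2-fold on the pseudocount scale, where genes with means well under 1 CP10k cannot, and none had separate share intervals. Their median log2 ratio was 0.03 (0.11 when CP10k were rescaled to a median ratio of 1). Ctss, the protease that completes invariant chain cleavage in most antigen-presenting cells, was seen in 0 of 29 CM cells and 1 of 139 TSF cells. Ctsl, a related cathepsin, had 17.8 CP10k in CM and 18.1 in TSF. The thiol reductase gene Ifi30 had a 2.15-fold higher mean in TSF by plain ratio, 0.517 CP10k against 0.240. The endoprotease gene Lgmn had a 1.98-fold higher mean, 0.878 CP10k against 0.443. Both had overlapping share intervals.

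Ligands that tell a T cell how to respond were rarely seen. Cd86, Icosl and Pdcd1lg2 were seen in no cancer cell, Cd80 in 1 TSF cell, and Cd40 in 1 cell of each library. The exception was Cd274, which encodes the inhibitory ligand PD-L1. It had 0.899 CP10k in CM and 0.0341 in TSF and was seen in 14 CM cells (48.3%, interval 29.4 to 67.5%) and 9 TSF cells (6.47%, interval 3.00 to 11.9%). CD74 is also a surface receptor for the cytokine MIF. Mif had 11.8 CP10k in CM and 24.3 in TSF (log2 ratio 0.98), the opposite direction to Cd74, and was seen in nearly all cells of both libraries.

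**Figure D4:**
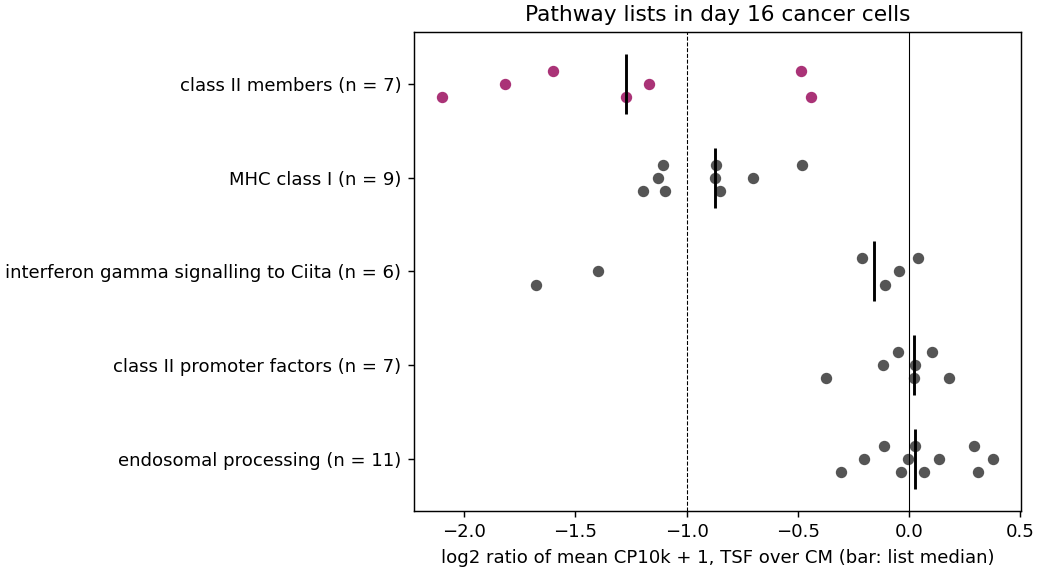
Log2 ratio of mean CP10k + 1, TSF over CM, for genes that passed the 10% limit on cells with a UMI (points) with the list median (bar) and the 2-fold line (dashed). The MHC class II members have a median of -1.27 and MHC class I genes of -0.87, while promoter factors (0.02), whose means are too low to pass 2-fold on this scale, and endosomal processing genes (0.03) lie near 0.

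MHC class I genes, which present peptides to CD8+ T cells, were lower too. All 9 listed genes, and 59.7% of the 10201 genes, had a log2 ratio below 0. The median of the 9 was -0.87. At least 2-fold lower in TSF were 4 of the 9 and 0.529% of the 10201 genes. With CP10k rescaled to a median ratio of 1, 2 of 9 were, and all genes were not counted under that setting. Nlrc5, the class I counterpart of Ciita, had 0.517 CP10k in CM and 0.0865 in TSF. It was seen in 41.4% of CM cells (interval 23.5 to 61.1%), as Ciita was, and in 20.1% of TSF cells (interval 13.8 to 27.8%). These intervals overlapped. Ciita was seen in 3.60% of TSF cells. With 1 library per group, whether class II and class I differed unequally was not tested.

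**Figure D5:**
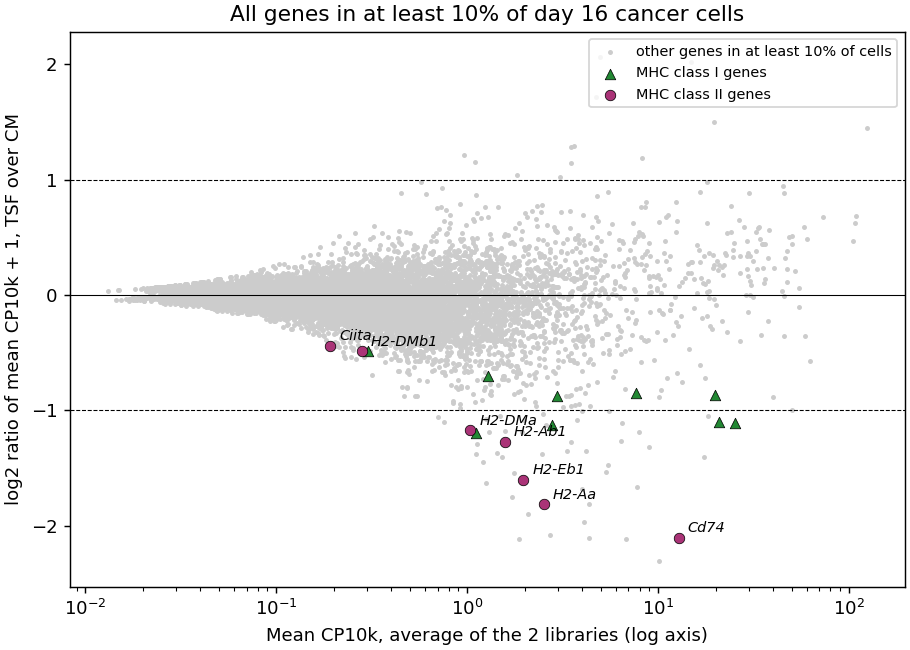
Log2 ratio of mean CP10k + 1, TSF over CM, against the average of the mean CP10k of both libraries (log axis) for 10201 genes; dashed lines mark 2-fold. The class II genes (circles) lie along the lower edge, 5 of them below the 2-fold line, and the class I genes (triangles) lie between -1.20 and -0.48.

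The 5 genes outside the lists whose difference was most like that of Cd74, by distance in log2 ratio and in the difference of shares (in units of 10 percentage points) over the 2 libraries, were Dnajb1, Hist1h2ae, Egr1, Gbp2 and Fosl1. Their distances ran from 0.293 to 0.896. Dnajb1 had 7.14 CP10k in CM and 1.08 in TSF, and Gbp2 had 7.68 and 1.02.

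Markers of other cells were read in the same cancer cells. Of 39 leukocyte markers (general, B cell, macrophage and monocyte, dendritic, T and NK cell, and neutrophil), 30 were at 0 in the CM cells and 17 in the TSF cells. A count of 0 allows up to 10.3% of 29 CM cells but 2.16% of 139 TSF cells. These numbers of markers at 0 are therefore not comparable between the libraries. The summed level of the 39 markers was 0.483 CP10k in CM and 1.49 in TSF. The leukocyte gene Ptprc was seen in 0 CM cells and 4 TSF cells, and no marker of the 39 was seen in more than 10.3% of CM cells. Most of the CM sum was Srgn, a proteoglycan gene of many leukocytes, with 0.361 CP10k in 2 CM cells and 0.129 CP10k in 6 TSF cells, and most of the TSF sum was neutrophil markers, at 1.03 CP10k in TSF and 0 in CM. The 6 B cell markers summed to 0.0632 CP10k in CM and 0.0311 in TSF, and of 10 macrophage and monocyte markers 8 were at 0 in CM and 7 in TSF. Lyz2, Csf1r, C1qa, C1qb, C1qc, Flt3, Itgax and Xcr1 were at 0 in both libraries. Without the neutrophil markers the sum was 0.483 CP10k in CM and 0.457 in TSF. These markers passed through the same ambient RNA subtraction as class II. Of 5 alveolar type 2 markers, which mark another lung cell type known to make class II, only Sftpa1 was seen, in 2 CM cells (0.363 CP10k over all CM cells) and no TSF cell. Of the fibroblast markers, Pdgfra was seen in 13 CM cells (44.8%) and 63 TSF cells (45.3%), Dcn in 2 and 16, and Col1a1 in 0 and 6. Of the endothelial markers, Pecam1 was seen in 1 CM cell and 9 TSF cells, Cdh5 in 3 and 6, and Cldn5 in 0 and 6. The authors' B Cells, Alv Macro, M1 Macro/DC, M2 Macro and pDCs, all known for class II, were summed without alveolar type 2 cells. They made up 21.3% of the annotated CM library and 16.1% of the annotated TSF library. The part of free RNA from those cells in the class II values was not tested.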

How the data were processed

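Lungs were profiled with 5' v1.1 10x Genomics libraries. The authors mapped reads with Cell Ranger to mm10 (GRCm38.p6), to which the CD90.1 sequence was added, subtracted ambient RNA with a customised SoupX whose contamination fraction they raised, removed cells with few UMIs or genes or with much mitochondrial RNA, and named cell types by hand. Seurat 4.1.0 is among the tools in the submitters' notes. Doublets formed an annotation class of their own, but the methods describe no doublet removal within the cancer cells, and none was made here.

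The deposited gene table gives, for day 16 cancer cells, the mean CP10k, the number and the percent of cells with a UMI in each library. The percent equals the number over 29 or 139 cells. Its fold changes and p-values, and the deposited enrichment scores, are the authors' own comparisons and were not used. The deposited UMI counts per cell gave the depths. They held 2 further libraries, which were not used, and the 3 libraries of day 11 have no expression values in the table.

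Log2 ratios used a pseudocount of 1 CP10k. Counts of genes past 2-fold or with separate intervals were taken over genes with a UMI in 10% or more of the CM or of the TSF cells. Intervals of shares are Clopper-Pearson, and those of share ratios exact conditional, both at the 95% level and for counting error only. The intervals of share ratios treat the counts as Poisson, which makes them wide where shares are high. Where no cell had a UMI, the limit is 3 counts of the total. Shares were not thinned to equal depth, since that needs a matrix of cells. The interval code was tested on simulated data. Gene coordinates are from GENCODE M21. Values were computed in Python 3.11.15 (scipy 1.17.1, pandas 2.3.3, numpy 2.4.6) and drawn with matplotlib 3.10.9.

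The members and lists were chosen with earlier results of these data known. Of the interferon gamma signalling list, 1 gene is not reported here. Named genes were the 7 members, genes of the pathway lists, cell type markers, and the 5 genes most like Cd74. Alternatives changed the pseudocount, the scaling, the cells averaged, the interval and the filter on genes.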

Additional observations from a re-analysis of the deposited data

How the results depend on the processing

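Under the alternatives tried, 36 of 36 member values were below 0, but most of these signs could hardly have differed. A change of pseudocount cannot alter the sign of a log2 ratio, and both rescalings were small beside the differences of the members. Only the average over cells with a UMI could readily have changed the direction. The median log2 ratio of the members moved with the pseudocount, to -2.31 with 0.1 CP10k and -2.87 with none, and under both settings 7 members in place of 5 were at least 2-fold lower, as were 4.86% and 15.7% of all genes in place of 0.529%. Averaged over cells with a UMI only, 3 members (Cd74, H2-Aa and H2-Eb1) were at least 2-fold lower, and the median was -0.96. Rescaling to the sum without Rpl and Rps genes, or to a median ratio of 1, left the number at 5, with medians of -1.35 and -1.20. Separate share intervals were found for 6 members with Wilson intervals and with the ratio of shares as well, and Cd74 was the exception each time. All genes were not counted for the average over cells with a UMI, the rescalings or these other intervals. The counts of members under those settings thus have no background. Without the filter on genes, the share of all genes 2-fold lower was 0.373% and that with separate intervals 1.05%. No paired analysis was possible because each group had 1 library and no test was made, and no library could be left out. The 29 CM cells limit the precision of every share, and differences between mice were not measured.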
